A study of Homo sapiens with 6 samples.

Results

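The tumor necrosis factor (TNF) superfamily is a set of trimeric ligands and their receptors, and here it comprised the 41 genes in the count tables whose symbols start with TNFSF or TNFRSF, or are TNF, LTA, LTB, LTBR, FAS, FASLG, CD40, EDAR or NGFR, of 23228 genes in all. Symbols with a hyphen, which mark readthrough genes, were left out. The rule used names only and no measured value. The 41 genes were 15 ligands and 26 receptors. Their RNA was measured in RL95-2, a human endometrial carcinoma cell line, in 3 control libraries and 3 libraries of cells given ADP-CM, a medium in which mature adipocytes of human visceral adipose tissue had been kept. Both groups were kept without serum for 24 h in equal parts of 2 media, RPMI with plain DMEM for control and RPMI with ADP-CM for the treated cells. The libraries come from a single cell line, and the sources do not give the number of tissue donors or medium preparations behind the 3 ADP-CM libraries. The labels do not say that replicates were separate cultures, so the p-values measure the spread between these samples, which may be technical. A value after ± is the SD over the n = 3 libraries of a group.

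Most ligands of the family are made as membrane proteins, and many are released by proteases. Receptors fall into classes by what their tails bind. Death-domain receptors such as FAS can assemble caspase-activating complexes, TRAF-binding receptors such as CD40 and LTBR recruit TRAF adaptors to NF-kB and MAP kinase pathways, and decoy receptors bind ligand without passing on a full signal. Most ligands are known from immune cells, while epithelial tumour cells typically carry the receptors for TNF, FAS ligand, TRAIL and TWEAK.

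The libraries held 16262614 to 18363033 reads on genes, and the 41 members took 0.139% to 0.146% of them. Replicates of a group were further apart than sampling noise alone (chi-square per degree of freedom 1.22 to 2.01 over genes). All 6 epithelial markers checked (EPCAM, CDH1, KRT8, KRT18, KRT19 and PAX8) were present, with a summed level of 4089 to 4160 CPM in control and 3441 to 3485 CPM in ADP-CM. By edgeR's quasi-likelihood test at an adjusted p of 0.01, 1 of them was raised (PAX8) and 4 were lowered. CPM is a gene's reads scaled to a common library size after TMM normalization. Of 8 leukocyte markers, which matter here because leukocytes are a source of many ligands, PTPRC had at most 1 read in any library, CD3E at most 2 and CD2 none. The summed leukocyte list ran from 30.7 to 33.4 CPM in control and 29.0 to 32.7 CPM in ADP-CM, nearly all of it LCP1 and CD68, of which LCP1 was lowered and CD68 raised by the same test. The adipocyte list summed to 0.616 to 1.18 CPM in control and 0.939 to 1.20 CPM in ADP-CM, with ADIPOQ and LEP at 0 in every library. The stromal list summed to 59.5 to 66.6 CPM in control and 76.3 to 78.0 CPM in ADP-CM, nearly all of it COL1A1, with at most 1 read of COL1A2. COL1A1 was raised by the same test. The endothelial list summed to 60.9 to 67.1 CPM in control and 54.6 to 62.2 CPM in ADP-CM, nearly all of it CDH5, with at most 1 read of PECAM1 and none of KDR. The part of these marker shifts in the results on the family was not tested.

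The upstream stretches below belong to the ligand with the largest fall and to the most highly read receptor that rose, 2 of the 5 members whose change passed the test. They are the 250 bases before the start of each gene in RefSeq, on GRCh38.p14, written 5′ to 3′ on the gene's own strand. Capitals mark a GC box (GGGCGG on either strand). The TNFSF4 stretch is chr1:173205533-173205782 on the minus strand, and the TNFRSF21 stretch is chr6:47309906-47310155 on the minus strand.
TNFSF4: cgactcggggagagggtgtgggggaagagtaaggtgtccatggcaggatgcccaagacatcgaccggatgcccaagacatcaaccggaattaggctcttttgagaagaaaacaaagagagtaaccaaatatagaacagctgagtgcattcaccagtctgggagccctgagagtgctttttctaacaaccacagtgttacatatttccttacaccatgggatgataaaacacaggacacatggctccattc
TNFRSF21: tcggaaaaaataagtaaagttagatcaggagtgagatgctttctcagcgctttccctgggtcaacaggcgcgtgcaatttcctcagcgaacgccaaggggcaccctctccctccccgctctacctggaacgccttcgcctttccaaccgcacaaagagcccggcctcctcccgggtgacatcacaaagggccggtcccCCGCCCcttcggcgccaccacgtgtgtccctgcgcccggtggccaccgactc
The TNFRSF21 stretch held 1 GC box, from 52 to 47 bases before the start, and the TNFSF4 stretch held none. Neither stretch held the consensus NF-kB motif, the AP-1 motif TGANTCA, the STAT motif TTCNNNGAA or the TATA motif TATAAA, each searched on both strands. Of the 41 members, 27 had a promoter in the table. The NF-kB motif was in 4 of these 27 (LTB, TNFRSF14, TNFRSF9 and TNFSF14) and in 9.57% of the 27305 promoters in the table. The AP-1 motif was in 4 (6.60% of all promoters), the STAT motif in 4 (6.78%), the TATA motif in 4 (11.1%) and the GC box in 16 (42.3%). Only 14 of the 27 promoters belong to members with enough reads to be tested. Of these 14, 1 held the NF-kB motif, 2 the AP-1 motif, 1 the STAT motif, 2 the TATA motif and 9 the GC box. EDAR, TNFRSF10B and TNFRSF12A, the other members past the test, were not in the table.

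Receptors, not ligands, made up nearly all of the family's RNA in RL95-2 cells. The receptors summed to 1355 ± 15.7 CPM in control and 1400 ± 12.6 CPM in ADP-CM, and the ligands to 48.7 ± 1.02 and 44.3 ± 1.70 CPM. The 5 receptors TNFRSF21, LTBR, TNFRSF12A, TNFRSF10B and TNFRSF1A held 84.2% to 85.9% of the members' reads in each library. Per kb of exon, TNFRSF12A was highest in control, at 182 ± 1.96 CPM per kb, followed by LTBR at 120.5 ± 4.27, TNFRSF21 at 90.6 ± 2.53, TNFRSF10B at 53.7 ± 0.878 and TNFRSF1A at 52.5 ± 0.442 CPM per kb. FAS, CD40 and TNFRSF10A came next, at 17.5 ± 0.632, 17.3 ± 1.06 and 16.4 ± 0.983 CPM per kb, and the SDs of neighbours in this order overlapped, as did those of TNFRSF10B and TNFRSF1A. Per kb of exon TNF was the highest of the 7 tested ligands, at 6.73 ± 0.663 CPM per kb in control, below CD70, a superfamily ligand outside the naming rule, at 10.9 ± 0.990 CPM per kb, and below the decoy receptor TNFRSF10D at 7.71 ± 0.189 CPM per kb. The remaining tested members lay between 4.65 CPM per kb for TNFSF9 and 0.158 CPM per kb for TNFRSF13C.

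**Figure D1:**
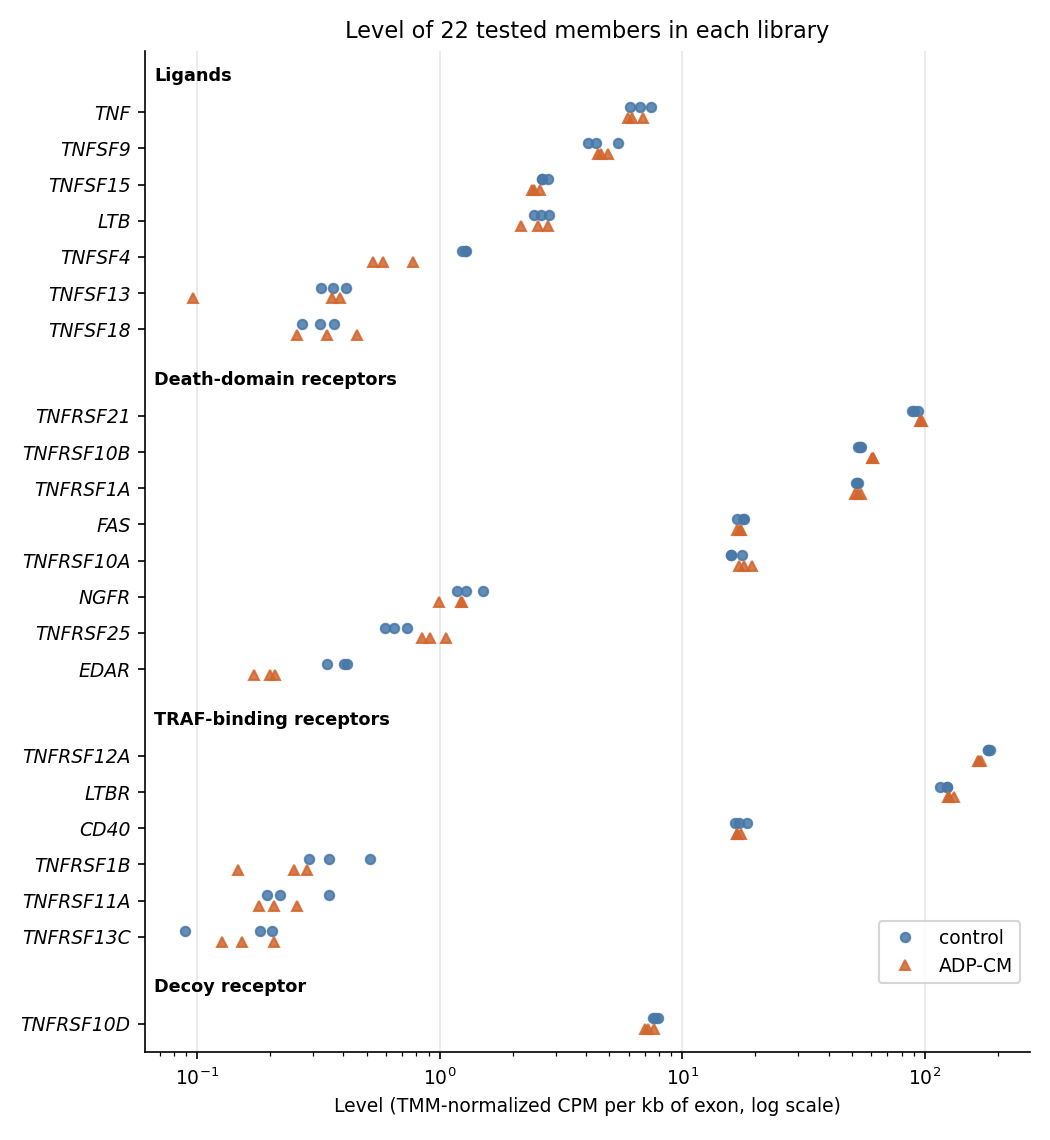
Level of the 22 tested members in each library, as TMM-normalized CPM per kb of exon on a log axis, with control libraries as blue circles and ADP-CM libraries as orange triangles, grouped by role. TNFRSF12A, LTBR and TNFRSF21 lie at the right, the ligands lie under 10 CPM per kb, and the groups are set apart most clearly for TNFSF4 and EDAR.

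Of the 41 members, 22 had enough reads to be tested and 19 did not. Among the 22, 2 rose and 3 fell in ADP-CM at an adjusted p under 0.01 (edgeR's quasi-likelihood test, Benjamini-Hochberg adjustment over the 12663 tested genes). Over all tested genes 13.5% were raised and 13.0% lowered, 26.5% in either direction, so 5 of 22 members (22.7%) is near the background. With a fold change over 1.5 required as well, 2 members remained, TNFSF4 and EDAR, both lower, beside 2.27% of all tested genes, 1.14% lowered and 1.14% raised. The 2 groups of libraries did not overlap for 9 of the 22, where they did not overlap for 45.5% of all tested genes. ADP-CM was the higher group in 4 of the 9 (22.7% of all tested genes) and the lower in 5 (22.8%). The median log2 fold change of the 22 was -0.05, and that of all tested genes -0.00231. The median size of the log2 fold change was 0.12 for the members and 0.11 for all tested genes. Of the 22, 20 had at least 10 reads in every library, among them all 5 that passed the test. The bulk libraries cannot tell fewer cells with a transcript from less of it per cell.

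**Figure D2:**
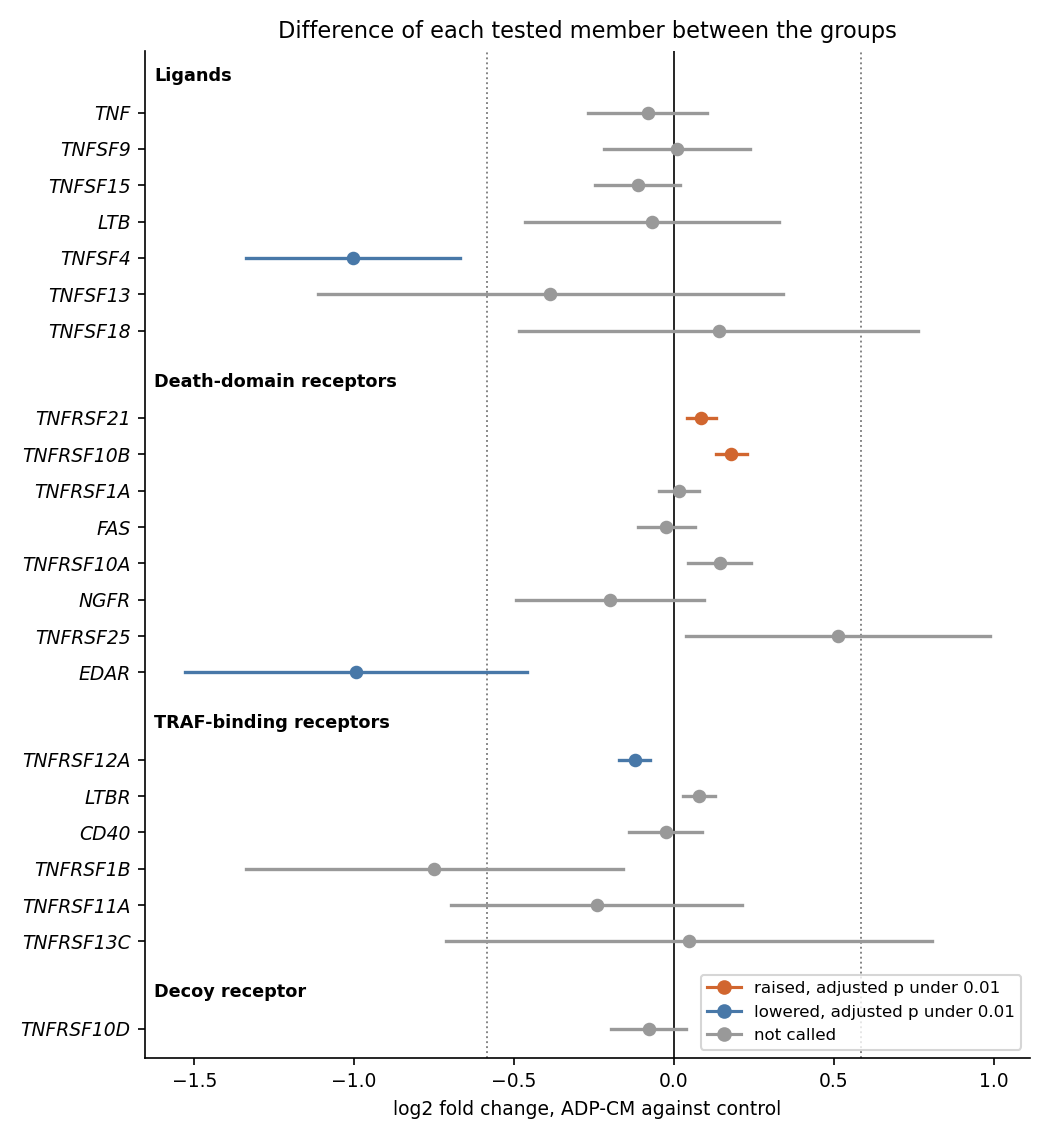
Log2 fold change (ADP-CM against control) of the 22 tested members with its 95% interval from edgeR's fit, grouped by role, in orange where raised, blue where lowered and grey where not called at an adjusted p of 0.01, with dotted lines at a 1.5-fold change. TNFSF4 and EDAR lie past the lower dotted line, while the intervals of TNFRSF21, TNFRSF10B and TNFRSF12A are narrow and close to 0 without touching it. The intervals are not adjusted for the number of genes tested. Those of LTBR, TNFRSF10A, TNFRSF25 and TNFRSF1B also miss 0, although these genes were not called.

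Among the 7 tested ligands 1 changed (14.3%, beside 26.5% of all tested genes). It was TNFSF4, known as OX40 ligand, a costimulator of T cells. TNFSF4 (chromosome 1, 173152870 to 173176470, GRCh37) had 75, 80 and 82 reads in control and 36, 53 and 40 in ADP-CM. In TMM-normalized CPM it was 4.62, 4.74 and 4.80 in control and 1.99, 2.89 and 2.17 in ADP-CM. Every ADP-CM library lay below every control library, and ADP-CM replicate 2 was the highest of its group. On the log2 scale the change was -1.0 (SE 0.17, edgeR adjusted p 1.50e-06). It ran from -1.18 to -0.90 over the 12 alternatives and passed the test in each. TNFRSF4, which encodes its receptor OX40, had 0 reads in each control library and 1, 1 and 3 in ADP-CM, too few to test. The groups did not overlap, but every count lay within the 3 reads that a count of 0 allows. With no filter on low counts edgeR gave TNFRSF4 an adjusted p of 0.128.

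The other 6 tested ligands did not pass the test. TNF itself, the founding cytokine of the family, had 12.5, 11.2 and 10.2 CPM in control and 10.4, 11.5 and 10.0 CPM in ADP-CM. The groups overlapped, and the 95% interval of the log2 fold change ran from -0.27 to 0.10. TNFSF15, the ligand of TNFRSF25, was at 20.9 ± 0.721 CPM in control and 19.3 ± 0.739 CPM in ADP-CM, with no overlap but an adjusted p of 0.183 (edgeR). TNFSF9, which encodes 4-1BB ligand, was at 7.59 ± 1.16 and 7.66 ± 0.363 CPM, and LTB, a subunit of the heterotrimer that binds LTBR, at 2.35 ± 0.168 and 2.24 ± 0.287 CPM. TNFSF18, the GITR ligand, had 12, 17 and 15 reads in control and 17, 23 and 13 in ADP-CM. TNFSF13, known as APRIL, had 12, 14 and 16 reads in control and 16, 4 and 15 in ADP-CM, with ADP-CM replicate 2 apart from the other libraries. In GENCODE 55.5% of the exonic bases of TNFSF13 are shared with the readthrough gene TNFSF12-TNFSF13 on its strand, so its count is uncertain.

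The other 8 ligands were too low to test. FASLG, TNFSF8, TNFSF11 and TNFSF12 had no read in any library, where 3 reads, the limit that a count of 0 allows, come to 0.163 to 0.185 CPM. TNFSF12, which encodes TWEAK, also shares exonic bases with that readthrough gene (12.1%), for which no read was counted either, so its count of 0 is uncertain. TNFSF10, which encodes TRAIL, a ligand that can trigger apoptosis, had 0, 1 and 0 reads in control and 3, 4 and 3 in ADP-CM. The groups did not overlap, but with no filter on low counts edgeR gave it an adjusted p of 0.0785. LTA had 0 to 4 reads, TNFSF13B 0 to 4 and TNFSF14 0 or 1 in any library, with groups that overlapped.

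All 8 death-domain receptors were tested, of which 2 rose and 1 fell (37.5% of this small class, beside 26.5% of all tested genes). TNFRSF10B, the TRAIL receptor also called DR5 (chromosome 8, 22877646 to 22926544), was at 211, 218 and 215 CPM in control and 244, 245 and 241 CPM in ADP-CM. The groups were well separated for a small change of 0.18 on the log2 scale (SE 0.025, edgeR adjusted p 1.91e-08). In GENCODE 7.52% of its exonic bases lie opposite RHOBTB2, and the strand setting of the counting is not given in the sources used here. TNFRSF21, the death receptor DR6 (chromosome 6, 47199268 to 47277641), whose upstream stretch with a GC box is printed above, was at 318, 336 and 324 CPM in control and 347, 343 and 348 CPM in ADP-CM. All ADP-CM libraries were higher than all control libraries, by 0.09 on the log2 scale (SE 0.023, edgeR adjusted p 0.00182). That adjusted p rose to 0.0357 without control replicate 1, 0.0113 without control replicate 3 and 0.0153 without ADP-CM replicate 1, where edgeR no longer called it at 0.01.

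EDAR, the receptor for the epithelial morphogen ectodysplasin (chromosome 2, 109510927 to 109605828), was the death-domain receptor that fell. It had 29, 31 and 26 reads in control and 16, 17 and 14 in ADP-CM. The groups did not overlap, with 1.71 ± 0.170 CPM in control and 0.857 ± 0.0860 CPM in ADP-CM. On the log2 scale the change was -0.99 (SE 0.27, edgeR adjusted p 0.00222). DESeq2 gave an adjusted p of 0.0278, and edgeR gave 0.0122 without control replicate 1, 0.0160 without control replicate 2 and 0.0122 without ADP-CM replicate 3. The change itself stayed between -1.07 and -0.91 over the 12 alternatives. Its adaptor gene EDARADD was at 134 ± 2.16 CPM in control and 136 ± 2.49 CPM in ADP-CM, and EDA, which encodes ectodysplasin, at 3.41 ± 0.905 and 3.87 ± 0.308 CPM. Neither passed the test.

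**Figure D3:**
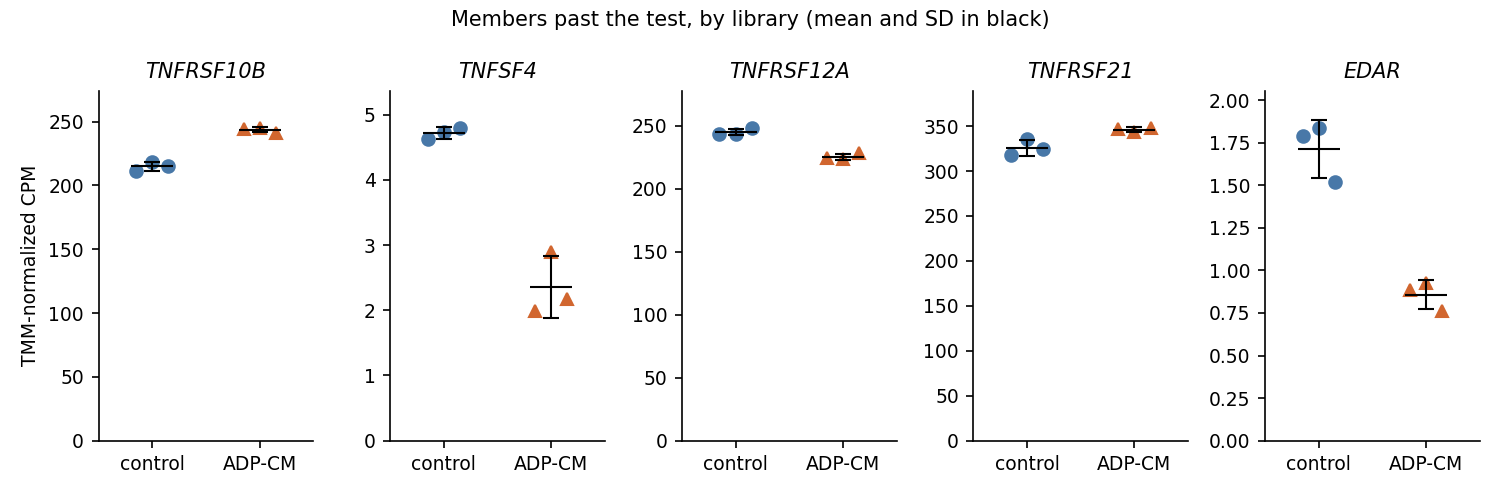
TMM-normalized CPM of the 5 members past the test in each library, with blue circles for control and orange triangles for ADP-CM, the mean and SD in black and each axis starting at 0. TNFSF4 fell by 50.1%, EDAR fell by 49.8%, TNFRSF12A fell by 8.13%, and TNFRSF10B and TNFRSF21 rose by 13.3% and 6.18%.

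The other 5 death-domain receptors did not pass the test. TNFRSF1A, the main TNF receptor of epithelial cells, was at 127, 125 and 126 CPM in control and 124, 127 and 131 CPM in ADP-CM. The groups overlapped, and the 95% interval of the log2 fold change ran from -0.05 to 0.08. FAS was at 51.8, 52.5 and 49.0 CPM in control and 51.0, 50.6 and 49.1 CPM in ADP-CM, with an interval from -0.11 to 0.06. In GENCODE 10.7% of the exonic bases of FAS lie opposite ACTA2, so its count carries the same doubt. TNFRSF10A, the TRAIL receptor also called DR4, was at 44.1 ± 2.64 CPM in control and 48.7 ± 3.03 CPM in ADP-CM. Its log2 fold change was 0.14 with an adjusted p of 0.0176 (edgeR), and over the alternatives that p ran from 0.00222 without ADP-CM replicate 3 and 0.00417 without control replicate 1 to 0.168. TNFRSF25 had 21, 20 and 25 reads in control and 33, 31 and 39 in ADP-CM, without overlap, and an adjusted p of 0.0835 (edgeR), with 8.98% of its exonic bases opposite ESPN. NGFR, the low-affinity neurotrophin receptor, had 67 to 93 reads in every library, and the groups overlapped.

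TRAIL binds the receptors TNFRSF10A and TNFRSF10B, which have a death domain, the membrane decoys TNFRSF10C and TNFRSF10D, and the soluble TNFRSF11B, which is given after them. The pair with a death domain summed to 258, 261 and 258 CPM in control and 292, 297 and 287 CPM in ADP-CM, a difference of 12.8%. Most of that sum was TNFRSF10B, at 215 ± 3.51 CPM in control and 243 ± 1.93 CPM in ADP-CM. The membrane decoys summed to 28.4, 27.2 and 26.8 CPM in control and 24.9, 27.3 and 25.9 CPM in ADP-CM, and the groups overlapped. Of all reads on the 4 TNFRSF10 genes, these decoys took 9.89% (exact 95% interval 9.05% to 10.8%), 9.46% (8.65% to 10.3%) and 9.43% (8.62% to 10.3%) in control replicates 1, 2 and 3. They took 7.83% (7.15% to 8.56%), 8.41% (7.72% to 9.15%) and 8.27% (7.57% to 9.01%) in ADP-CM replicates 1, 2 and 3. TNFRSF10B is among the reads that each share is taken of, so the share is not a result separate from its rise. Each share was lower in ADP-CM than in any control library, though single intervals overlap between the groups. These intervals cover the counting of reads within a library only, not the spread between libraries. Since reads carry no molecular identifiers, the intervals may be too narrow even for that. Nearly all decoy reads were of TNFRSF10D, at 27.3 ± 0.669 CPM in control and 25.8 ± 1.11 CPM in ADP-CM (edgeR adjusted p 0.312). TNFRSF10C had 1 to 6 reads in any library. The 4 genes are neighbouring paralogs on chromosome 8, so reads may have been split between them or dropped by the counting.

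**Figure D4:**
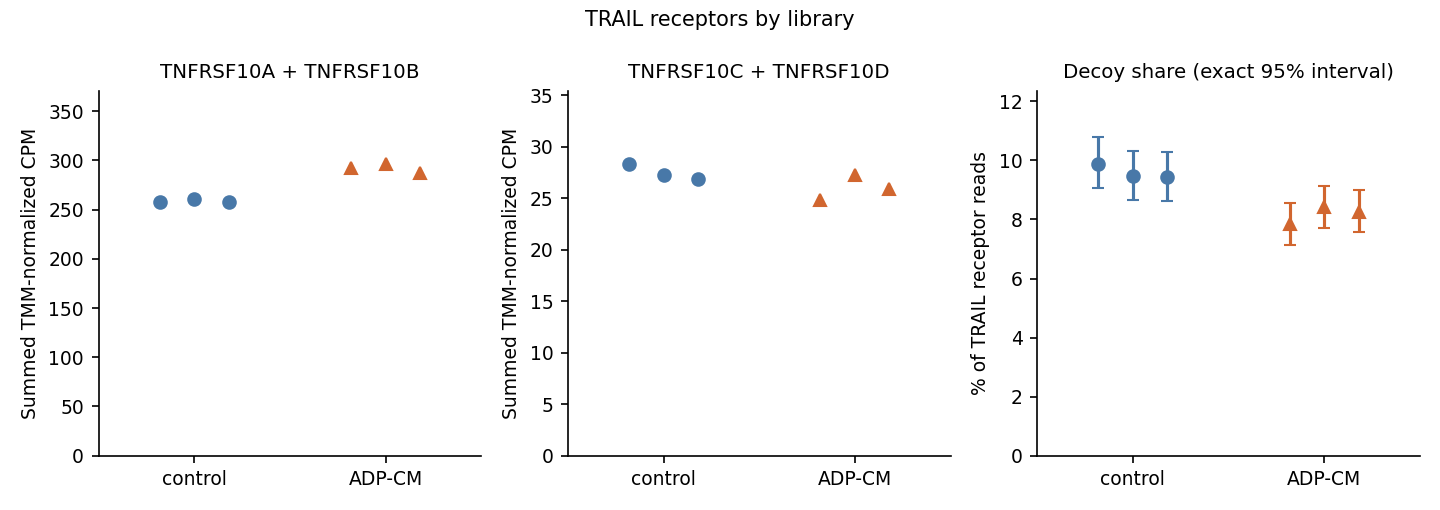
TRAIL receptor RNA in each library: the summed TMM-normalized CPM of the death-domain receptors TNFRSF10A and TNFRSF10B (left), that of the decoys TNFRSF10C and TNFRSF10D (middle), and the decoys' share of all reads on the 4 genes with its exact 95% binomial interval (right). The death-domain sum lies between 258 and 261 CPM in control and between 287 and 297 CPM in ADP-CM, and the decoy share between 9.43% and 9.89% in control and between 7.83% and 8.41% in ADP-CM.

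The 2 soluble decoys had few reads. TNFRSF11B, which encodes osteoprotegerin, had 1 read in ADP-CM replicate 3 and none elsewhere. TNFRSF6B, the decoy for FAS ligand, had 0 to 2 reads in any library. In GENCODE every exonic base of TNFRSF6B (100%) is shared with the readthrough gene RTEL1-TNFRSF6B on its strand, so its count is uncertain.

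Among the 14 TRAF-binding receptors 6 were tested, of which 1 fell (16.7%, beside 26.5% of all tested genes called in either direction). TNFRSF12A, known as FN14 and the receptor of TWEAK (chromosome 16, 3068446 to 3072384), was at 244, 244 and 248 CPM in control and 224, 224 and 228 CPM in ADP-CM. Every ADP-CM library lay below the control libraries, by a small margin that was larger than the spread. On the log2 scale the change was -0.12 (SE 0.025, edgeR adjusted p 5.10e-05), and the call held under all 12 alternatives. In GENCODE 2.22% of its exonic bases lie opposite CLDN6. LTBR, the lymphotoxin beta receptor, lay just outside the threshold. It was at 283, 283 and 266 CPM in control and 286, 288 and 304 CPM in ADP-CM, without overlap. Its log2 fold change was 0.08 with an adjusted p of 0.0110 (edgeR), which ran from 0.00494 with no filter on low counts to 0.180 and was 0.00905 without control replicate 1, 0.00682 without ADP-CM replicate 2 and 0.00769 with the replicate number as a block. In GENCODE 6.86% of its exonic bases lie opposite SCNN1A. TNFRSF1B, the TNF receptor best known from leukocytes, had 31, 18 and 22 reads in control and 19, 10 and 17 in ADP-CM. In CPM its groups did not overlap, and the log2 fold change was -0.75 with an adjusted p of 0.0391 (edgeR).

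CD40, a receptor best known from antigen-presenting cells, was at 31.9, 28.4 and 29.4 CPM in control and 29.1, 28.8 and 30.1 CPM in ADP-CM. The groups overlapped, and the 95% interval of the log2 fold change ran from -0.14 to 0.09. TNFRSF11A, which encodes RANK, had 29, 48 and 27 reads in control and 38, 31 and 27 in ADP-CM, and TNFRSF13C, the BAFF receptor, 13, 12 and 6 in control and 9, 11 and 15 in ADP-CM. Neither passed the test. The other 8 TRAF-binding receptors were untested, with TNFRSF13B at 0 in every library. TNFRSF19, an orphan receptor of epithelia, had 7 to 12 reads and TNFRSF18, which encodes GITR, 4 to 9. TNFRSF14 had 2, 0 and 3 reads in control and 0 in each ADP-CM library, both within the limit of 3 reads. TNFRSF8, TNFRSF9 and TNFRSF17 had at most 8, 3 and 2 reads in any library.

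Setting ligands beside their receptors, several pairs were represented on a single side. FAS, CD40, TNFRSF12A and TNFRSF11A were read in all libraries while their ligand genes FASLG, CD40LG, TNFSF12 and TNFSF11 had no reads, with the limit on TNFSF12 given above. In the opposite sense TNFSF9, TNFSF4 and CD70 were read while TNFRSF9 and TNFRSF4 had at most 3 reads and CD27 none. TNF with TNFRSF1A, TNFSF15 with TNFRSF25 and EDA with EDAR were read on both sides. LTB and LTBR were also read, but LTB is only a subunit of the heterotrimer, and LTA had 0 to 4 reads in any library. Superfamily genes whose symbols fall outside the naming rule included CD70 at 13.2 ± 1.20 CPM in control and 12.7 ± 0.397 CPM in ADP-CM and the receptor RELT at 25.0 ± 0.208 and 25.5 ± 0.566 CPM in the same order. Neither passed the test, and EDA2R, CD27 and CD40LG had no reads.

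Downstream of the receptors, 64 genes for adaptors, ubiquitin enzymes, kinases, caspases and ligand-processing proteases were followed, of which 62 were tested. By edgeR's quasi-likelihood test at an adjusted p of 0.01, 7 were raised and 6 lowered, 21.0% of the tested list beside 26.5% of all tested genes. Their median log2 fold change was 0.02. RIPK3, which encodes the kinase of necroptosis, had no read in any library, and CASP10 had too few to test. The changes went in both directions within most classes, and TRAF1 was the single gene with a fold change over 1.5.

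Of the 14 adaptor genes 1 changed (7.14%, beside 26.5% of all tested genes). This was TRAF1, an adaptor that binds TRAF2 and that TNF is known to induce. It was at 2.40, 2.07 and 1.99 CPM in control and 1.10, 0.654 and 0.870 CPM in ADP-CM. The groups did not overlap, and on the log2 scale the change was -1.29 (SE 0.26, edgeR adjusted p 3.69e-05). TRADD and FADD, the adaptors of the death-domain receptors, did not pass the test, at 9.83 ± 1.05 and 45.5 ± 1.39 CPM in control and 9.19 ± 0.650 and 49.0 ± 2.75 CPM in ADP-CM.

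Of the 15 ubiquitin enzymes and regulators 2 rose and 2 fell (26.7%, beside 26.5% of all tested genes). BIRC3 and BIRC2 encode the paralogous ubiquitin ligases cIAP2 and cIAP1, and they moved in opposite directions. BIRC3 was at 80.3, 79.2 and 80.9 CPM in control and 92.8, 99.7 and 88.2 CPM in ADP-CM (log2 fold change 0.22, edgeR adjusted p 1.37e-06). BIRC2 was at 420, 434 and 435 CPM in control and 373, 385 and 371 CPM in ADP-CM (log2 fold change -0.19, edgeR adjusted p 5.33e-11). Neither gene's groups overlapped. TNFAIP3 and CYLD, which encode deubiquitinases that restrain NF-kB signalling, also went apart. TNFAIP3 rose from 34.9 ± 2.65 to 42.3 ± 1.14 CPM and CYLD fell from 35.6 ± 1.59 to 29.7 ± 0.691 CPM, with log2 fold changes of 0.28 and -0.26.

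Of the 18 tested kinases 3 rose and 2 fell (27.8%, beside 26.5% of all tested genes). MAP3K14, which encodes NIK, the kinase of the non-canonical NF-kB pathway used by LTBR, CD40 and FN14, fell from 108 ± 2.24 to 90.0 ± 3.54 CPM (log2 fold change -0.26, edgeR adjusted p 4.39e-09). IKBKB, a kinase of the canonical pathway, fell by 0.13 on the log2 scale. MAP2K3, MAP3K5 and MAP3K8, all of the MAP kinase cascades, rose with log2 fold changes of 0.13, 0.24 and 0.23. Several of these calls were close to the threshold, and their log2 fold changes kept their sign under every alternative, from 0.17 to 0.27 for MAP3K8, -0.15 to -0.11 for IKBKB, 0.19 to 0.28 for MAP3K5 and 0.12 to 0.15 for MAP2K3. DESeq2 gave MAP3K8, IKBKB and MAP3K5 adjusted p-values of 0.0716, 0.0435 and 0.0246. By edgeR the adjusted p of MAP3K8 was 0.0940 without control replicate 1, 0.0187 without control replicate 2, 0.0484 without ADP-CM replicate 1, 0.0346 without ADP-CM replicate 2 and 0.0106 with at least 10 reads required in every library. That of IKBKB was 0.0233 without control replicate 1, 0.0507 without control replicate 2 and 0.0403 without ADP-CM replicate 1 (edgeR). That of MAP3K5 was 0.0278 without control replicate 1, and that of MAP2K3 was 0.0128 without control replicate 2 (edgeR). RIPK1, the kinase recruited by TNFRSF1A, was at 63.3 ± 3.32 CPM in control and 57.9 ± 2.24 CPM in ADP-CM and lay just outside the threshold, with an adjusted p of 0.0114 (edgeR) that was 0.00857 without control replicate 1, 0.00371 without ADP-CM replicate 2 and 0.00724 with the replicate number as a block.

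None of the 8 tested caspase and death genes was called by edgeR at an adjusted p of 0.01 or by DESeq2. At an unadjusted p under 0.05, 2 of them passed. CASP8, the initiator caspase of the FAS and TRAIL receptors, was at 36.2 CPM in control and 34.9 CPM in ADP-CM, and CFLAR, its inhibitor, at 32.7 CPM in both. The 95% intervals of their log2 fold changes ran from -0.17 to 0.06 and from -0.11 to 0.11.

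Of the 7 genes that process or release the ligands, 2 rose and 1 fell (42.9% of this small class, beside 26.5% of all tested genes). FURIN, a protease that cleaves precursors such as those of APRIL, BAFF and ectodysplasin, rose from 57.4 ± 1.69 to 70.6 ± 2.17 CPM (log2 fold change 0.30, edgeR adjusted p 8.84e-09). RHBDF2, which encodes a partner of the TNF-releasing protease ADAM17, rose from 33.8 ± 0.679 to 40.8 ± 2.66 CPM. SPPL2A, an intramembrane protease that cleaves the stub left by TNF shedding, fell from 62.6 ± 3.24 to 48.8 ± 1.66 CPM (log2 fold change -0.36). All 7 genes, called or not, had groups without overlap, beside 45.5% of all tested genes. Over the whole signalling list the groups did not overlap for 28 of the 62 tested genes, so this class is the extreme of the list. ADAM17 itself was at 81.5 CPM in control and 84.9 CPM in ADP-CM and did not pass the test, with 10.3% of its exonic bases opposite another gene, IAH1.

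**Figure D5:**
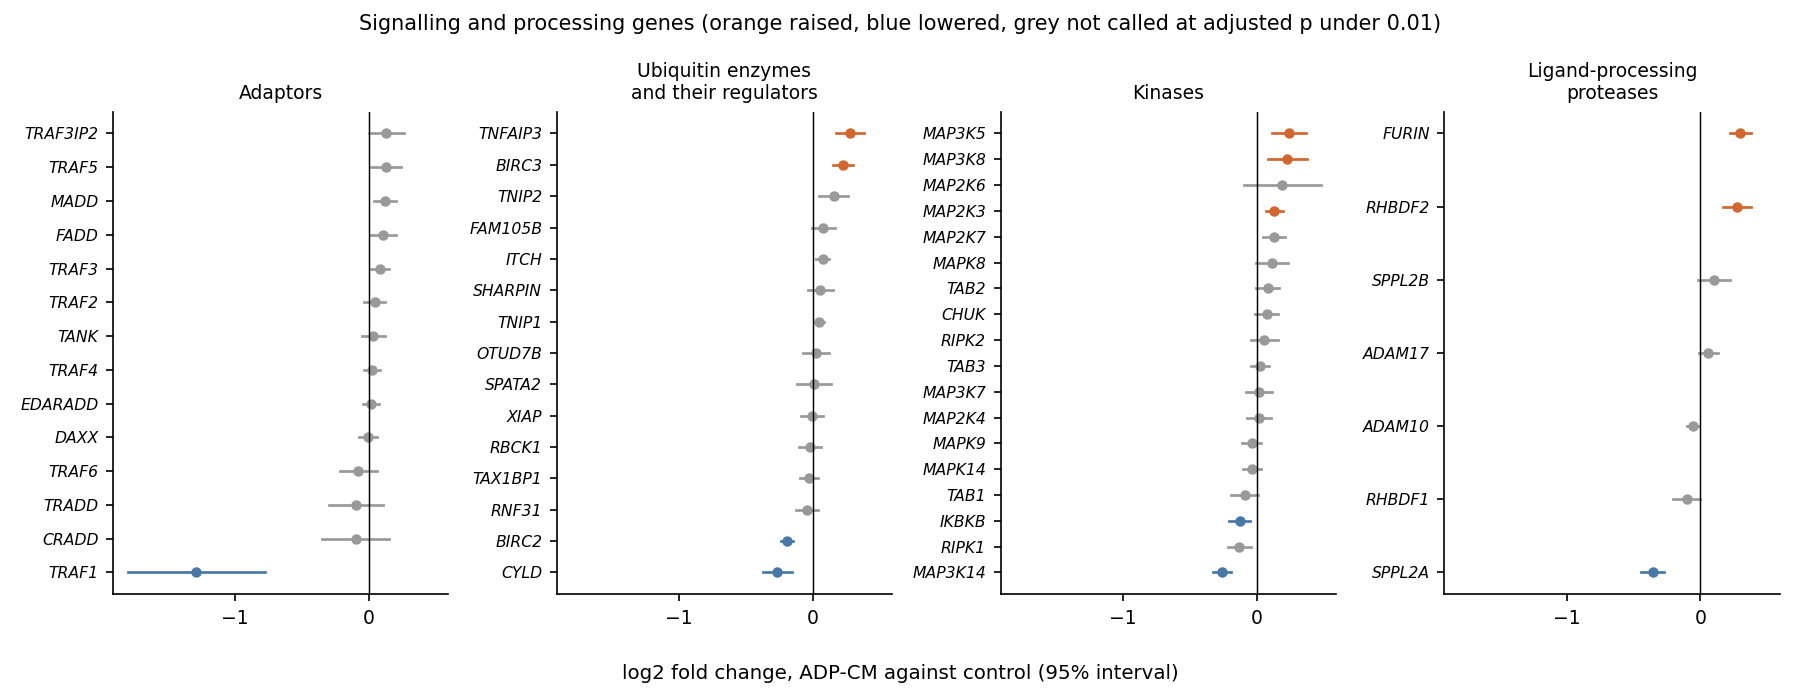
Log2 fold change (ADP-CM against control) of the tested adaptor, ubiquitin, kinase and ligand-processing genes with its 95% interval from edgeR's fit, in 4 panels by class, in orange where raised, blue where lowered and grey where not called at an adjusted p of 0.01. TRAF1 lies at -1.29 and the other genes drawn lie between -0.36 and 0.30.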

How the data were processed

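RNA-seq counts of 3 control and 3 ADP-CM libraries of RL95-2 cells were used, grouped by the treatment in GEO's labels. Per the study's methods and the labels, stranded poly(A) libraries were read as 50 bp single reads, aligned to hg19 with TopHat2 and assigned to NCBI RefSeq genes with HTSeq. The authors deposited raw counts per gene and library, with no normalization. The tool versions and strand setting are not given in the sources used here. HTSeq's summary lines, such as reads on no gene (10.2% to 11.6% of all reads listed), name no gene and were left out.

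TMM normalization and tests were run with edgeR 4.0.16 (R 4.3.3). Genes were filtered by filterByExpr (12663 of 23228 genes kept) and compared by the quasi-likelihood test with treatment as the single term, p-values being adjusted after Benjamini-Hochberg. Calls used a limit of 0.01 on the adjusted p, as the study did, also with its fold limit of 1.5. The common biological coefficient of variation was 1.67%, which sets how small a change of a well read gene passes. Members under the filter are given as reads, and 3 reads were taken as the limit that a count of 0 allows. Gene positions, exon lengths and overlaps are from GENCODE release 44 on GRCh37, the build of hg19, and RefSeq's hg19 models may differ. Promoters are from RefSeq on GRCh38.p14 and no coordinates were converted. The fit was tested on simulated data first. Alternatives were DESeq2 1.42.0, other scalings and filters, the replicate number as a term, and each library left out. All members were to be given, with full values for those past the test, and for the signalling list the 6 smallest p-values in each direction. The other signalling genes named (MAP3K8 and those not called) were chosen after their values were seen. Values of 2 signalling genes are not reported here. Members and lists were chosen with earlier results of these data known.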

Additional observations from a re-analysis of the deposited data

How the results depend on the processing

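Scaling by DESeq2 size factors or plain library size, dropping the filter on low counts and requiring 10 reads in every library left 5 to 6 members called, 3 of them lower. With a limit of 0.05 on the adjusted p, 8 of the 22 tested members were called (4 raised) and 20 of the 62 tested signalling genes (11 raised). At that limit 2326 of all 12663 tested genes were raised and 2319 lowered, so these counts are no excess over the background. With DESeq2, 1 member passed the fold limit of 1.5, lower in ADP-CM, and over all genes 2139 were called, 1124 raised and 1015 lowered, against 3357 by edgeR. Leaving out each library in turn gave 4 to 6 members called, 1 to 3 raised and 2 to 3 lowered, of which 1 to 2 were past the fold limit, 1 to 2 of them lower. The same runs gave 11 to 15 signalling genes, 5 to 8 raised and 5 to 7 lowered, and 2638 to 3206 genes in all. Dividing levels by length did not change which 5 members were highest in control. No called member or signalling gene reversed. Same-numbered libraries of the 2 groups deviated together with correlations of only 0.03 to 0.09 across genes, so the numbers were not taken as pairs, although each library correlated best with its own number. With the replicate number as a block, 6 members were called, 3 raised and 3 lowered, 2 of them past the fold limit and 0 of those raised, with 15 signalling genes (7 raised, 8 lowered) and 3502 genes in all (1786 raised, 1716 lowered). The depth limits the low members: 19 of 41 could not be tested, and 3 reads correspond to 0.163 to 0.185 CPM.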
